A study of Mus musculus with 18 samples.

Results

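The 3 D cyclins (Ccnd1, Ccnd2 and Ccnd3) and the 3 CIP/KIP inhibitors of cyclin-dependent kinases (Cdkn1a, Cdkn1b and Cdkn1c) were followed in C3H10T1/2 cells, a mouse fibroblast line that can be induced to form fat cells. Every probe set whose only gene symbol was one of these 6 genes was taken, which gave 9 probe sets among the 12488 on an Affymetrix mouse array. Ccnd1, Cdkn1a and Cdkn1b had 2 probe sets each, and the other 3 genes had 1. The study asked how epidermal growth factor (EGF) and the dioxin TCDD, which activates the aryl hydrocarbon receptor (AhR), act on cells with and without a mix that induces adipogenesis. The 18 arrays fell into 8 groups, IDMB + EGF + TCDD (2 arrays), IDMB + EGF (2), IDMB + TCDD (2), IDMB (3), EGF+TCDD (2), EGF (2), TCDD (2) and UT (3). IDMB held 1 µM BRL49653 (an agonist of the nuclear receptor PPARγ), 1 µM dexamethasone (a glucocorticoid), IBMX (an inhibitor of phosphodiesterases, 0.5 µM as labelled) and 10 µg/mL insulin, and stayed on the cells for 24 h. Exposure to EGF (10 nM) lasted 24 h and exposure to TCDD (10 nM) 72 h. The labels do not spell out UT and list no addition for it. All groups shared the same line, a harvest at 72 h from the last serum and 24 h past confluence, and a pool of mRNA from 6 cultures for each array. The labels number the arrays as replicates without saying more of their origin, so p-values measure the spread between these arrays, which may be technical.

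D cyclins bind the kinases CDK4 and CDK6 in G1 phase, and the complexes phosphorylate the retinoblastoma protein, which frees E2F factors to switch on genes of S phase. Mitogens such as EGF act through Ras and ERK signalling to raise transcription of the D cyclins, Ccnd1 above all. The CIP/KIP proteins p21 (Cdkn1a), p27 (Cdkn1b) and p57 (Cdkn1c) bind cyclin-CDK complexes and inhibit above all those of CDK2. In confluent preadipocytes a hormone mix starts a programme in which cells may divide again before they differentiate, and the levels of D cyclins and p27 take part in that decision.

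Cdkn1a is shown with its promoters because both of its probe sets moved with TCDD. RefSeq promoter windows on the GRCm38.p6 build were matched for 3 of the 6 genes (Ccnd3, Cdkn1a and Cdkn1b), and Ccnd1, Ccnd2 and Cdkn1c had none here. Below are the 250 bases before each of the 2 annotated Cdkn1a starts, plus strand, 5′ to 3′. In the first, capitals mark decamer motifs of p53, the factor best known for switching Cdkn1a on. In the second, capitals mark the AhR core motif GCGTG.
Cdkn1a, chr17:29090729-29090978: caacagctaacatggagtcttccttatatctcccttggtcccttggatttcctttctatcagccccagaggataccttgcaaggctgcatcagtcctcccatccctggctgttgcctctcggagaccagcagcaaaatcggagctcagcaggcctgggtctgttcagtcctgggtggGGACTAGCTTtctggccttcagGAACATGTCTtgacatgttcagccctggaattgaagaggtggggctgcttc
Cdkn1a, chr17:29093519-29093768: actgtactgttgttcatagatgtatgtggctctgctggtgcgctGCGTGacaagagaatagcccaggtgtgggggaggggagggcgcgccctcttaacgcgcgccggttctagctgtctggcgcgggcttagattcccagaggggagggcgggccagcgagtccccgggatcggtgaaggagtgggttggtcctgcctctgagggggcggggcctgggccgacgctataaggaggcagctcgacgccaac

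Matches were sought on both strands. The first window held 2 p53 decamers, against 7.13% of 32851 RefSeq promoter windows of the same length with at least 1. The second held 1 match to GCGTG, which 28.2% of all windows also hold, and 2 matches to the Sp1 motif GGGCGG, which 32.7% hold. GCGTG also occurred in the Cdkn1b window and in 1 of the 2 Ccnd3 windows. Neither Cdkn1a window held the cAMP response motif TGACG (in 17.8% of windows) or the glucocorticoid receptor motif AGAACA (in 16.1%). These letters are matches to a motif, not measured binding.

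The deposited values were signal intensities on a linear scale, with array medians between 793.35 and 935.7. Differences were taken on the log2 scale with every value below 143.5 (the 20th percentile) raised to that floor. Probe sets whose highest group mean reached the median of all log2 values were tested, 7134 in all, and 8 of the 9 probe sets of the 6 genes passed. A gene was called higher or lower at an adjusted p under 0.05 (limma, Benjamini-Hochberg over the 7134 probe sets within each comparison). A mean effect is the average, on the log2 scale, of the 4 differences with against without a treatment, 1 for each background. The number of arrays limits the precision. Fibroblast markers (9 of 9 on the array) had a summed intensity of 270733 to 478565 with IDMB and 282788 to 535223 without, most of it from collagens, Sparc and S100a4; Col1a1 alone ran from 68469 to 152911. Vim (median 479) lay under the floor on 1 array and Thy1 (median 841) on 2, and the other 7 on none. Summed markers of adipocytes (6 of 8 on the array) ran from 9036 to 24302 with IDMB and from 6523 to 17582 without. Cebpa (median 8510) and Lep (2642) were the brightest, and Pparg (1063) and Fabp4 (735) were dimmer. Lpl (288) lay under the floor on 6 arrays and Adipoq (334) on 1. Those of macrophages and leukocytes (7 of 7) ran from 5464 to 8418 with IDMB and from 7697 to 12739 without; Ptprc and Adgre1 lay under the floor on 16 of 18 arrays each, while Cd14 (median 5160), Laptm5 (1269) and Csf1r (847) lay under it on none. Those of endothelium (5 of 5) ran from 676 to 2157 with IDMB and from 1090 to 2289 without, with Cdh5 under the floor on 16 arrays and Pecam1 (median 707) on 1. Epithelial markers (5 of 5) ran from 2352 to 5018 with IDMB and from 2418 to 4585 without, and skeletal muscle markers (5 of 5) from 2505 to 4115 and from 2203 to 4453. Their part in the results was not tested. The 3′ to 5′ signal ratio of the beta-actin control probe sets, a sign of RNA quality, ran from 1.80 to 3.80 with IDMB and from 1.23 to 1.93 without. The Gapdh ratio was lowest on the 4 arrays that had TCDD without EGF, at 0.919 and 0.854 in TCDD cells and 1.05 and 1.09 in IDMB + TCDD cells. Both ratios moved with the treatments. A fit with a ratio as a covariate therefore cannot separate the treatment from RNA quality, and a call lost there may be lost precision.

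**Figure D1:**
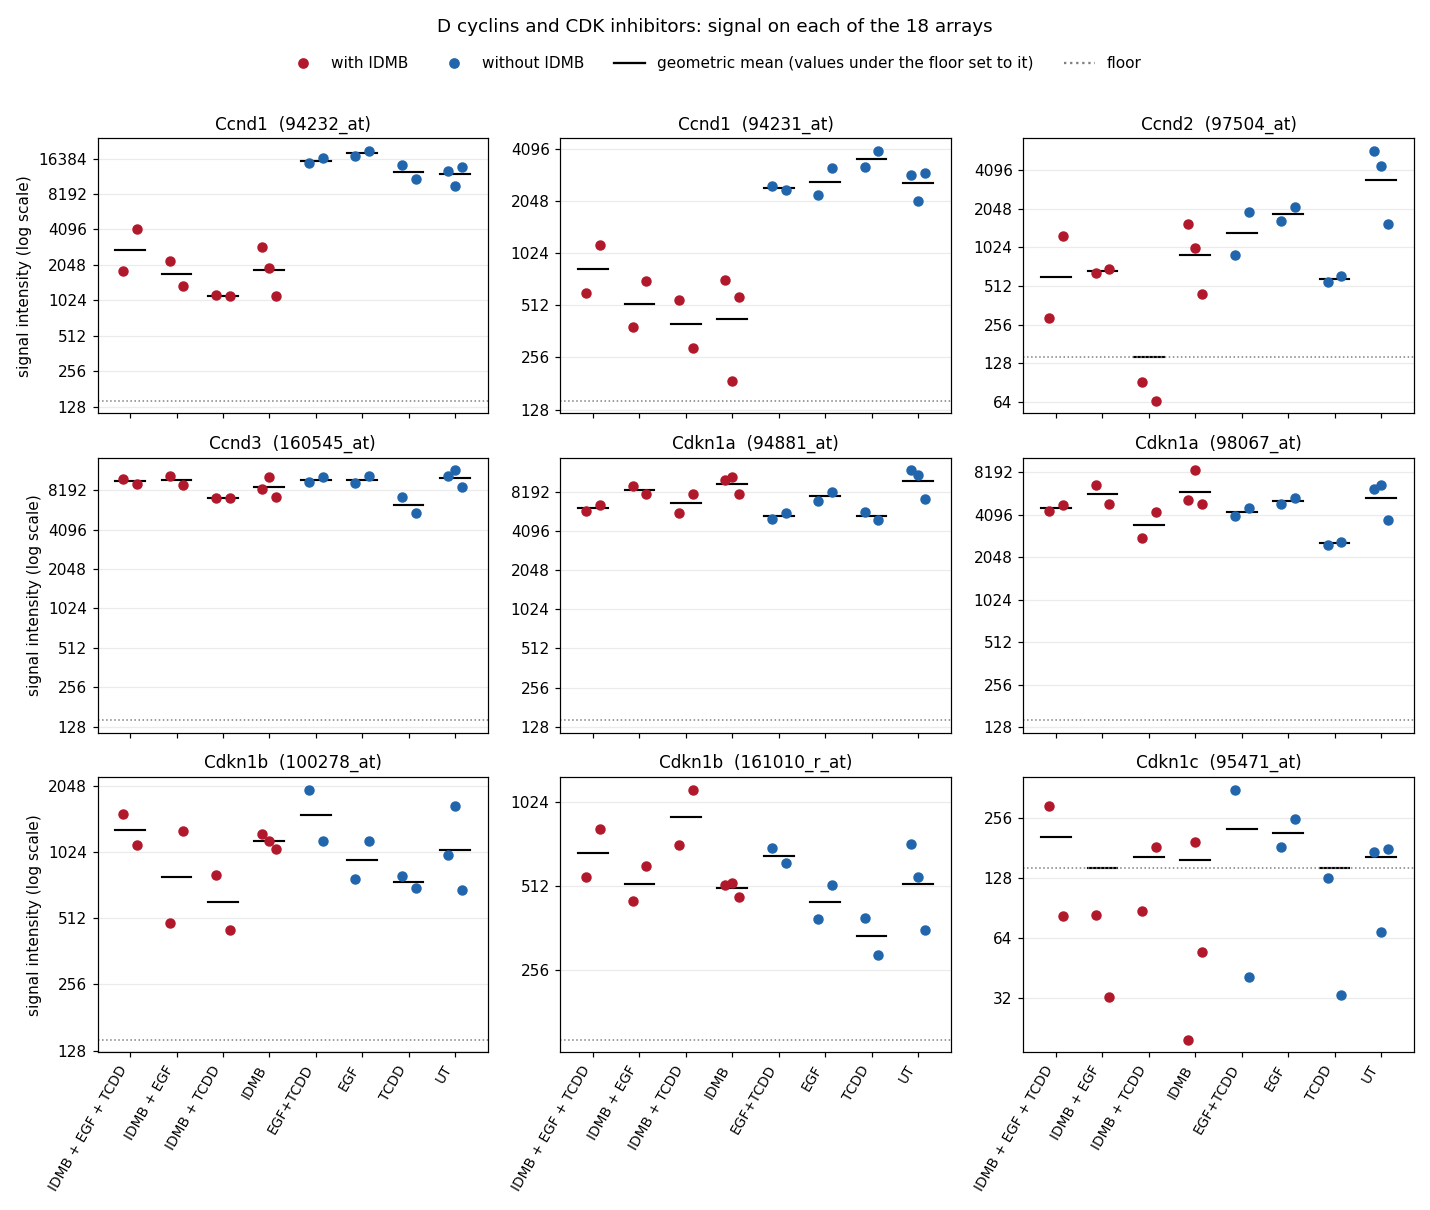
Intensity of each of the 9 probe sets (vertical axes, linear units drawn on a log scale) in the 8 groups (horizontal axes); each point is 1 array and each bar the geometric mean of its group. Both Ccnd1 probe sets lie lower on all 9 arrays with IDMB than on all 9 without, and most Cdkn1c values lie under the floor.

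In the mean effect of IDMB 2 of the 3 D cyclins were called lower, and no tested inhibitor was called. Cdkn1c was too dim to be tested. Of the 8 probe sets tested, 3 were lower (both of Ccnd1 and that of Ccnd2) and 0 were higher in the mean effect of IDMB, where 34.1% of all probe sets were called, 18.6% lower and 15.5% higher. The median log2 difference was -0.10 over the 8 probe sets and -0.04 over all 7134. Of the 3 called lower, 94231_at of Ccnd1 passed the filter only through groups without IDMB.

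Ccnd1, the D cyclin most closely tied to mitogen signalling, is measured by probe sets 94232_at, the brighter one, and 94231_at. On 94232_at the intensity was 1826.6 and 4134.3 in IDMB + EGF + TCDD cells, 2201.2 and 1353.3 in IDMB + EGF cells, 1133.0 and 1113.8 in IDMB + TCDD cells, and 2922.0, 1923.8 and 1112.9 in IDMB cells. Without IDMB it was 14924.0 and 16540.8 in EGF+TCDD cells, 17258.3 and 19009.4 in EGF cells, 14393.1 and 10888.8 in TCDD cells, and 12945.2, 9665.4 and 13782.2 in UT cells. The highest array with IDMB (4134.3) thus lay under the lowest without it (9665.4), a separation that 2.14% of all probe sets showed in the same direction. The mean effect of IDMB on 94232_at was -3.02 on the log2 scale (SE 0.188, 95% interval -3.42 to -2.62), an 8.12-fold lower level, with an adjusted p of 4.90e-09 in limma. This was the 5th lowest log2 difference of the 7134. In bulk RNA fewer cells with a transcript and less of it per cell cannot be told apart.

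The fall of Ccnd1 was present on each of the 4 backgrounds. On 94232_at the level was 6.51-fold lower in IDMB cells than in UT cells (log2 -2.70, adjusted p = 2.46e-05 in limma) and 11.1-fold lower in IDMB + TCDD cells than in TCDD cells (log2 -3.48, adjusted p = 4.22e-05). It was 10.5-fold lower in IDMB + EGF cells than in EGF cells (log2 -3.39, adjusted p = 3.95e-05). In IDMB + EGF + TCDD cells it was 5.72-fold lower than in EGF+TCDD cells (log2 -2.52, adjusted p = 0.000816), with log2 -1.93 (adjusted p = 0.0237) without IDMB + EGF + TCDD replicate 1 and -3.10 without replicate 2.

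The share of probe sets called lower in these 4 comparisons was 7.42% for IDMB against UT, 6.28% for IDMB + TCDD against TCDD, 5.27% for IDMB + EGF against EGF and 3.06% for IDMB + EGF + TCDD against EGF+TCDD.

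The dimmer Ccnd1 probe set, 94231_at, also split by IDMB. It passed the filter on dim probe sets only through groups without IDMB, so it was tested because of the groups in which it is high. Its calls with the filter are thus no separate support for the fall. The mean effect of IDMB on it was also called with no filter. Its intensity ran from 187.5 to 1142.1 (median 569.2) over the 9 arrays with IDMB and from 2053.5 to 4005.5 (median 2907.8) over the 9 without, with no overlap. Its mean effect of IDMB was -2.43 on the log2 scale (SE 0.255), 5.38-fold lower, with an adjusted p of 1.93e-06 in limma. It fell in IDMB against UT cells (log2 -2.62, adjusted p = 0.000536 in limma; -2.03 without IDMB replicate 2) and in IDMB + TCDD against TCDD cells (log2 -3.17, adjusted p = 0.00116). In IDMB + EGF against EGF cells it was called at log2 -2.35 (adjusted p = 0.00896), but not without IDMB + EGF replicate 1 (adjusted p = 0.0974) or EGF replicate 2 (0.107). In IDMB + EGF + TCDD against EGF+TCDD cells it was not called (log2 -1.57, adjusted p = 0.0961), except without IDMB replicate 2 (0.0289). With the beta-actin ratio as a covariate the mean effect of IDMB on Ccnd1 was larger, at log2 -4.04 on 94232_at and -3.19 on 94231_at, and was still called.

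In the fit to all arrays EGF and TCDD did not pass the test on Ccnd1. The mean effect of EGF on 94232_at was 0.53 on the log2 scale (95% interval 0.13 to 0.93, adjusted p = 0.0739 in limma); it was called without IDMB + EGF + TCDD replicate 1 (0.0291) or IDMB replicate 1 (0.0264). Both EGF arrays (17258.3 and 19009.4) lay above all 3 UT arrays (9665.4 to 13782.2), as in 19.6% of all probe sets. TCDD gave a mean effect of -0.05 (interval -0.44 to 0.35, adjusted p = 0.928). On 94231_at the mean effects were 0.21 for EGF (adjusted p = 0.641 in limma) and 0.23 for TCDD (adjusted p = 0.675). In order of geometric mean on 94232_at the groups ran EGF, EGF+TCDD, TCDD, UT, IDMB + EGF + TCDD, IDMB, IDMB + EGF and IDMB + TCDD. Neighbours in that order overlapped for TCDD and UT, for IDMB + EGF + TCDD and IDMB, and for IDMB and IDMB + EGF.

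**Figure D2:**
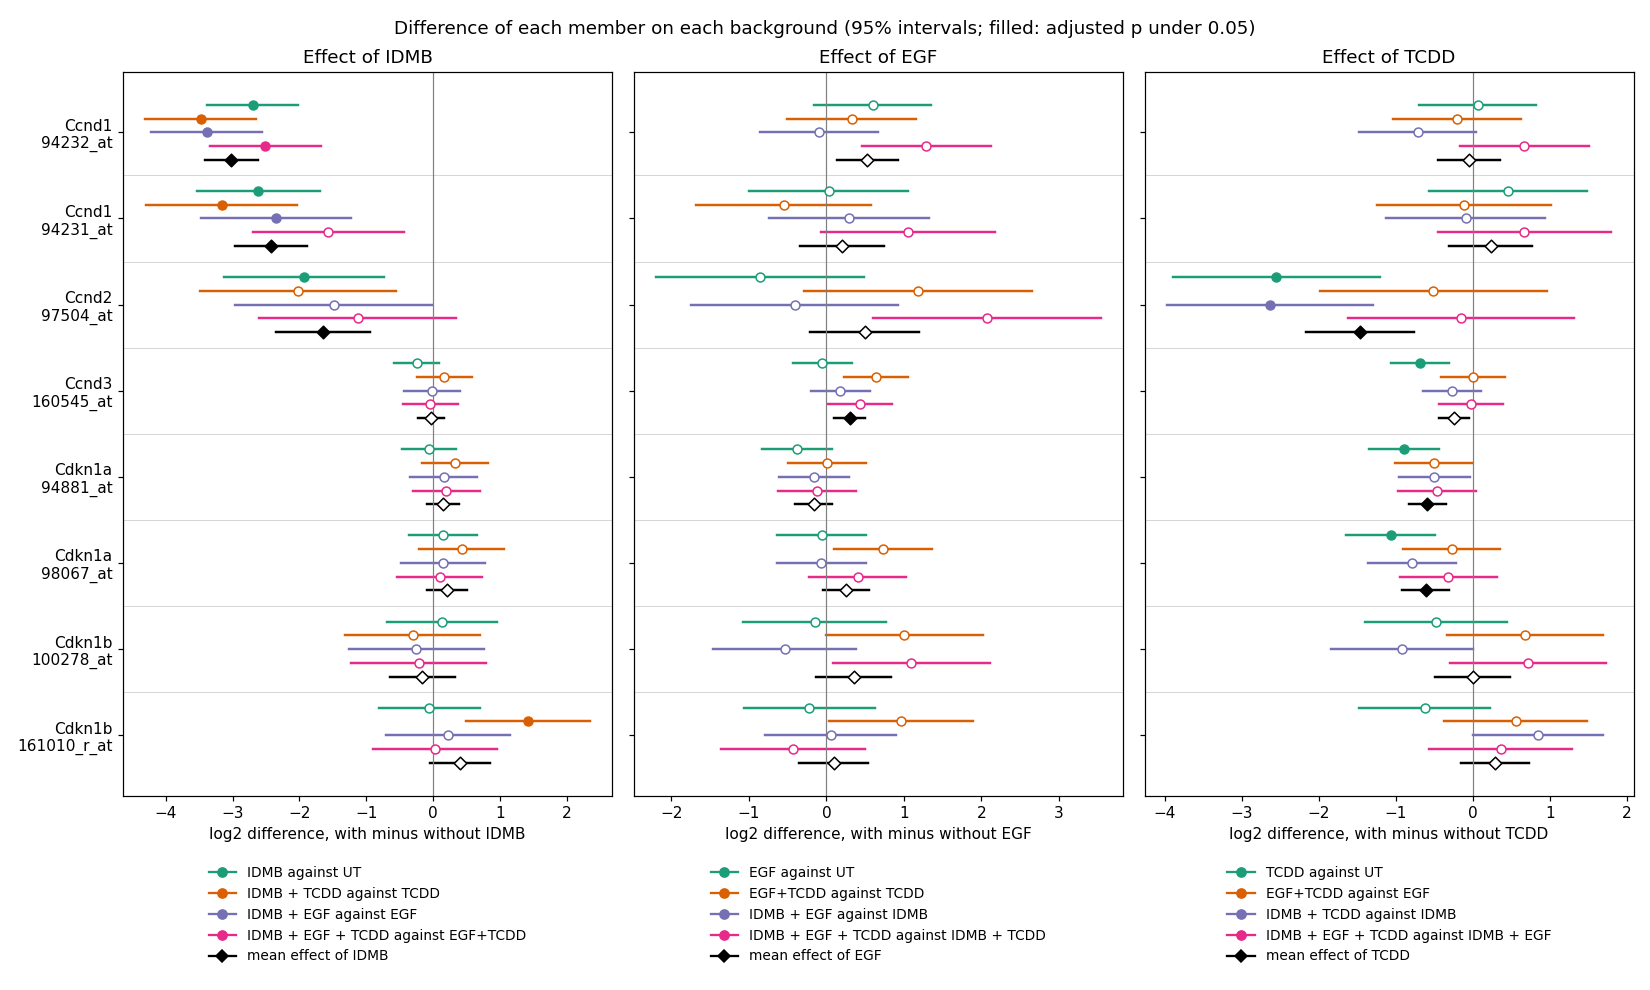
Log2 difference with its 95% interval (horizontal axes) for the 8 tested probe sets (vertical axis) under IDMB, EGF and TCDD, as the mean effect and on each of the 4 backgrounds; filled symbols have an adjusted p under 0.05. The mean effect of IDMB on Ccnd1 is -3.02 on 94232_at and -2.43 on 94231_at. In the mean effects Ccnd2 is lower with IDMB and with TCDD, and both Cdkn1a probe sets are lower with TCDD.

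Ccnd2, the D cyclin that acts beside Ccnd1 in many mesenchymal cells, fell with IDMB and with TCDD. Probe set 97504_at read 286.1 and 1266.9 in IDMB + EGF + TCDD cells, 647.1 and 691.1 in IDMB + EGF cells, 91.6 and 65.0 in IDMB + TCDD cells, and 1562.1, 1006.3 and 446.9 in IDMB cells. Without IDMB it read 893.9 and 1944.9 in EGF+TCDD cells, 1659.2 and 2128.3 in EGF cells, 554.7 and 611.1 in TCDD cells, and 5789.6, 4395.6 and 1554.4 in UT cells. UT cells held the 2 highest arrays of all 18, IDMB + TCDD cells were the only group with both arrays under the floor, and the arrays with and without IDMB overlapped. IDMB gave a mean effect of -1.65 on the log2 scale (SE 0.332), 3.13-fold lower, with an adjusted p of 0.00109 in limma. Both IDMB + TCDD arrays entered this difference at the floor. With the beta-actin ratio as a covariate it was -3.01 (adjusted p = 0.0115).

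Against UT cells the fall of Ccnd2 in IDMB cells was 3.83-fold (log2 -1.94, adjusted p = 0.0294 in limma), although 1 IDMB array lay above the lowest UT array. That call was lost without IDMB replicate 2 (adjusted p = 0.0601), IDMB replicate 3 (0.135), UT replicate 1 (0.127) or UT replicate 2 (0.102), and with no filter on dim probe sets (0.110). With EGF and with both EGF and TCDD present the differences with against without IDMB were not called, at log2 -1.49 and -1.13. In IDMB + TCDD against TCDD cells the difference was log2 -2.02, a bound since both IDMB + TCDD arrays were at the floor, and was not called (adjusted p = 0.0674 in limma). That difference was called with a floor at the 5th percentile (log2 -2.92, adjusted p = 0.0133) and with the beta-actin ratio (log2 -3.45, 0.0447) or the Gapdh ratio (0.0183) as a covariate. It was also called without IDMB + EGF + TCDD replicate 1 (0.0404) or 2 (0.0402) or UT replicate 3 (0.0417).

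In the mean effect of TCDD Ccnd2 and Cdkn1a were called lower, and no tested probe set of the 6 genes was called higher. Of the 8 probe sets 3 were lower in the mean effect of TCDD, where 5.54% of all probe sets were called, 2.83% lower and 2.71% higher. The median log2 difference was -0.15 over the 8 probe sets and 0.01 over all 7134.

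Over all backgrounds Ccnd2 ran from 65.0 to 1944.9 (median 582.9) on the 8 arrays with TCDD and from 446.9 to 5789.6 (median 1558.25) on the 10 without. TCDD gave a mean effect of -1.46 on the log2 scale (SE 0.332), 2.75-fold lower, with an adjusted p of 0.0159 in limma and both IDMB + TCDD arrays at the floor, and was not called with no filter on dim probe sets (0.0748). It was the 13th lowest log2 difference of the 7134 for TCDD.

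Of the 4 comparisons with against without TCDD, the 2 without EGF were called for Ccnd2. In TCDD cells Ccnd2 was 5.85-fold lower than in UT cells (log2 -2.55, adjusted p = 0.0240 in limma), with no overlap of the arrays, as in 19.1% of all probe sets in that direction. In IDMB + TCDD cells it was at least 6.19-fold lower than in IDMB cells, since both IDMB + TCDD arrays were under the floor (log2 -2.63, adjusted p = 0.0199; 3.53% of all probe sets were called lower there). With EGF present the differences were -0.51 in EGF+TCDD against EGF cells (adjusted p = 0.999 in limma) and -0.15 in IDMB + EGF + TCDD against IDMB + EGF cells (adjusted p = 1). The interaction of EGF and TCDD, which tests that contrast, was 2.26 on the log2 scale (95% interval 0.85 to 3.66) and was not called (adjusted p = 0.0644). It was called with a floor at the 5th percentile (0.0349) or 100 added before log2 (0.0496), and without IDMB + EGF + TCDD replicate 1 (0.0268), IDMB replicate 3 (0.0354) or UT replicate 3 (0.0256). The Gapdh ratio was low in the same 4 arrays, and with it as a covariate neither comparison was called, at log2 -1.25 (adjusted p = 0.488) for TCDD against UT and -1.88 (0.110) for IDMB + TCDD against IDMB.

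Leaving out 1 array ended these calls too. TCDD against UT was lost without TCDD replicate 1 (adjusted p = 0.133), TCDD replicate 2 (0.104), UT replicate 1 (0.0704) or UT replicate 2 (0.0929). IDMB + TCDD against IDMB was lost without IDMB + TCDD replicate 1 (0.111) or 2 (0.115) and without IDMB replicate 1 (0.0567) or 2 (0.0632). With no filter on dim probe sets the adjusted p was 0.0852 for the first and 0.0870 for the second.

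Cdkn1a, which encodes p21, was lower with TCDD on both probe sets. On 94881_at, the brighter one, TCDD cells read 5684.2 and 4975.1, against 11998.2, 11071.3 and 7213.7 in UT cells. EGF+TCDD cells read 5068.4 and 5610.6, against 7008.7 and 8186.2 in EGF cells. With IDMB, IDMB + TCDD cells read 5668.1 and 7878.7, against 10114.1, 10662.6 and 7820.1 in IDMB cells, and IDMB + EGF + TCDD cells read 5832.4 and 6432.7, against 9115.4 and 7834.5 in IDMB + EGF cells. The arrays did not overlap on 3 of these 4 backgrounds, the exception being IDMB + TCDD against IDMB; such a separation in the same direction was found in 19.1% of all probe sets for TCDD against UT, 17.9% for EGF+TCDD against EGF and 16.4% for IDMB + EGF + TCDD against IDMB + EGF. TCDD gave a mean effect of -0.59 on the log2 scale (SE 0.113), 1.51-fold lower, with an adjusted p of 0.00539 in limma. The 4 differences lay between -0.89 and -0.46. In the fit to all arrays only that of TCDD against UT cells was called, here and on the second probe set. With the replicate block that of IDMB + TCDD against IDMB cells was called too (adjusted p = 0.0241 in limma).

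The second Cdkn1a probe set, 98067_at, ran from 2496.1 to 4816.3 (median 4120.25) on the 8 arrays with TCDD and from 3753.3 to 8434.0 (median 5284.25) on the 10 without. Its mean effect of TCDD was -0.61 (SE 0.142), 1.53-fold lower, with an adjusted p of 0.0183 in limma, and was not called without IDMB + TCDD replicate 1 (0.0542) or with no filter on dim probe sets (0.0646). The 2 probe sets correlated at r = 0.81 over the 18 arrays, and at 0.86 after group means were removed, which describes arrays that share groups and scaling.

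In TCDD against UT cells 4 of the 8 probe sets were lower and 0 higher, where 7.68% of all probe sets were called, 3.8% lower and 3.88% higher. Besides Ccnd2 these were both of Cdkn1a, at log2 -0.89 on 94881_at (1.85-fold lower, adjusted p = 0.0208 in limma) and -1.07 on 98067_at (2.09-fold lower, adjusted p = 0.0272), and Ccnd3. Both Cdkn1a calls were lost on leaving out either TCDD array, UT replicate 1 or UT replicate 2 (adjusted p 0.0655 to 0.146), with no filter on dim probe sets (0.0557 and 0.0758) and with the Gapdh ratio as a covariate (0.390 and 0.307). In EGF+TCDD against UT cells 94881_at was the 1 probe set called, at log2 -0.89 (1.85-fold lower, adjusted p = 0.0269; 5.4% of all probe sets were called, 2.44% lower). That call was lost without EGF+TCDD replicate 1 (0.208) or 2 (0.123) and without UT replicate 1 (0.0734) or 2 (0.112). It was also lost with no filter (0.0766), no variance trend (0.0552), and the beta-actin (0.0638) or Gapdh ratio (0.120) as a covariate. In that comparison 98067_at was not called (log2 -0.33, adjusted p = 0.561).

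IDMB and EGF did not pass the test on Cdkn1a. The mean effects of IDMB were 0.16 on 94881_at (95% interval -0.08 to 0.40, adjusted p = 0.313 in limma) and 0.21 on 98067_at (adjusted p = 0.293). Those of EGF differed in sign between the probe sets, at -0.17 (adjusted p = 0.369) and 0.25 (adjusted p = 0.269).

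Ccnd3, the D cyclin that is often kept in cells leaving the cycle to differentiate, stayed between 5502.6 and 11614.2 on all arrays. Probe set 160545_at read 9991.5 and 9190.3 in IDMB + EGF + TCDD cells, 10502.5 and 9039.4 in IDMB + EGF cells, 7122.3 and 7112.6 in IDMB + TCDD cells, and 8418.2, 10303.5 and 7313.5 in IDMB cells. Without IDMB it read 9480.7 and 10269.9 in EGF+TCDD cells, 9302.6 and 10417.8 in EGF cells, 7309.6 and 5502.6 in TCDD cells, and 10517.6, 11614.2 and 8683.2 in UT cells. The lowest 2 groups by geometric mean were IDMB + TCDD and TCDD, the groups with the lowest Ccnd2 and the lowest Gapdh ratio. The mean effect of IDMB was -0.03 on the log2 scale, with a 95% interval of -0.23 to 0.16 (adjusted p = 0.811 in limma).

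TCDD cells had 1.61-fold less Ccnd3 than UT cells (log2 -0.69, adjusted p = 0.0290 in limma), with no overlap, as in 19.1% of all probe sets in that direction. The call was lost without TCDD replicate 2 (adjusted p = 0.263), UT replicate 1 (0.0651) or UT replicate 2 (0.121), and with no filter (0.0533), no variance trend (0.0524) or the Gapdh ratio as a covariate (0.323). In the mean effect of EGF Ccnd3 was the 1 probe set called, 1.23-fold higher (log2 0.30, SE 0.093, adjusted p = 0.0435), where 13.1% of all probe sets were called, 7.06% higher and 6.04% lower. The median log2 difference with EGF was 0.28 over the 8 probe sets and 0.00 over all 7134. The call held in 4 of the 18 fits with 1 array left out, those without IDMB + EGF replicate 2 (0.0455), IDMB replicate 2 (0.0270), TCDD replicate 1 (0.0256) or UT replicate 2 (0.0418), and reached 0.128 without TCDD replicate 2. Arrays with and without EGF overlapped, at 9039.4 to 10502.5 (median 9736.1) with it and 5502.6 to 11614.2 (median 7865.85) without. The Gapdh ratio was 1.43 to 2.86 with EGF and 0.854 to 1.73 without, and with it as a covariate the adjusted p was 0.934.

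Cdkn1b, which encodes p27, had no comparison in which both of its probe sets were called. On 100278_at, the brighter one, the intensity was 1517.2 and 1102.2 in IDMB + EGF + TCDD cells, 489.0 and 1271.2 in IDMB + EGF cells, 806.6 and 453.1 in IDMB + TCDD cells, and 1236.5, 1149.1 and 1056.0 in IDMB cells. Without IDMB it was 1966.4 and 1146.5 in EGF+TCDD cells, 769.4 and 1144.2 in EGF cells, 792.9 and 705.0 in TCDD cells, and 989.4, 1651.8 and 688.7 in UT cells. All neighbouring groups overlapped in the order of geometric means. The mean effects were -0.16 for IDMB (95% interval -0.64 to 0.32), 0.35 for EGF (-0.13 to 0.84) and 0.00 for TCDD (-0.48 to 0.48), with adjusted p of 0.638, 0.338 and 0.999 in limma.

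On 161010_r_at the 18 arrays ran from 288.5 to 1132.0. The level was 2.67-fold higher in IDMB + TCDD cells (717.0 and 1132.0) than in TCDD cells (393.3 and 288.5), at log2 1.42 with an adjusted p of 0.0432 in limma. This probe set passed the filter on dim probe sets only through its mean in IDMB + TCDD cells, so it was tested because of the group in which it is high, and the call is no support for a change. It was the 1 probe set of the 8 called higher there, beside the 2 of Ccnd1 called lower, where 12.8% of all were called, 6.53% higher. On 100278_at the same comparison gave -0.31 (adjusted p = 0.728), and the call on 161010_r_at was kept in 9 of the 17 fits with 1 array left out in which it passed the filter, with an adjusted p of 0.223 without TCDD replicate 2; without IDMB + TCDD replicate 2 it was not tested. It was 0.537 with the beta-actin and 0.106 with the Gapdh ratio as a covariate. The 2 Cdkn1b probe sets correlated at r = 0.12 over the 18 arrays.

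Cdkn1c, which encodes p57, was too dim to be tested. Probe set 95471_at ran from 19.8 to 355.7 (median 107.5), with 10 of 18 arrays under the floor and no group above it throughout except EGF cells (183.8 and 252.9). Fitted with no filter on dim probe sets, its mean effects were -0.15 for IDMB, 0.31 for EGF and 0.11 for TCDD, with adjusted p of 0.696, 0.442 and 0.872 in limma.

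In the fit to all arrays no interaction between treatments was called for any of the 8 probe sets in limma. At an unadjusted p under 0.05 there were 0 of 8 for IDMB by EGF, 0 for IDMB by TCDD, 4 for EGF by TCDD and 1 for the 3-way term. Of all probe sets 0.126%, 0.112%, 4.47% and 0% were called in these 4 terms at an adjusted p under 0.05. That threshold is stricter, so these shares cannot be set against the unadjusted counts. Ranked by p in the EGF by TCDD term, the 4 lay between 399 and 1406 of the 7134 probe sets. Many other probe sets thus also passed the unadjusted threshold there, and the count of 4 does not set the members apart. For Ccnd1 on 94232_at the IDMB by EGF term was 0.14 on the log2 scale (95% interval -0.66 to 0.93) and the IDMB by TCDD term 0.05 (-0.75 to 0.85). The Gapdh ratio was low where TCDD was given without EGF, and with it as a covariate 1 of the 7134 probe sets was called in the EGF by TCDD term.

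**Figure D3:**
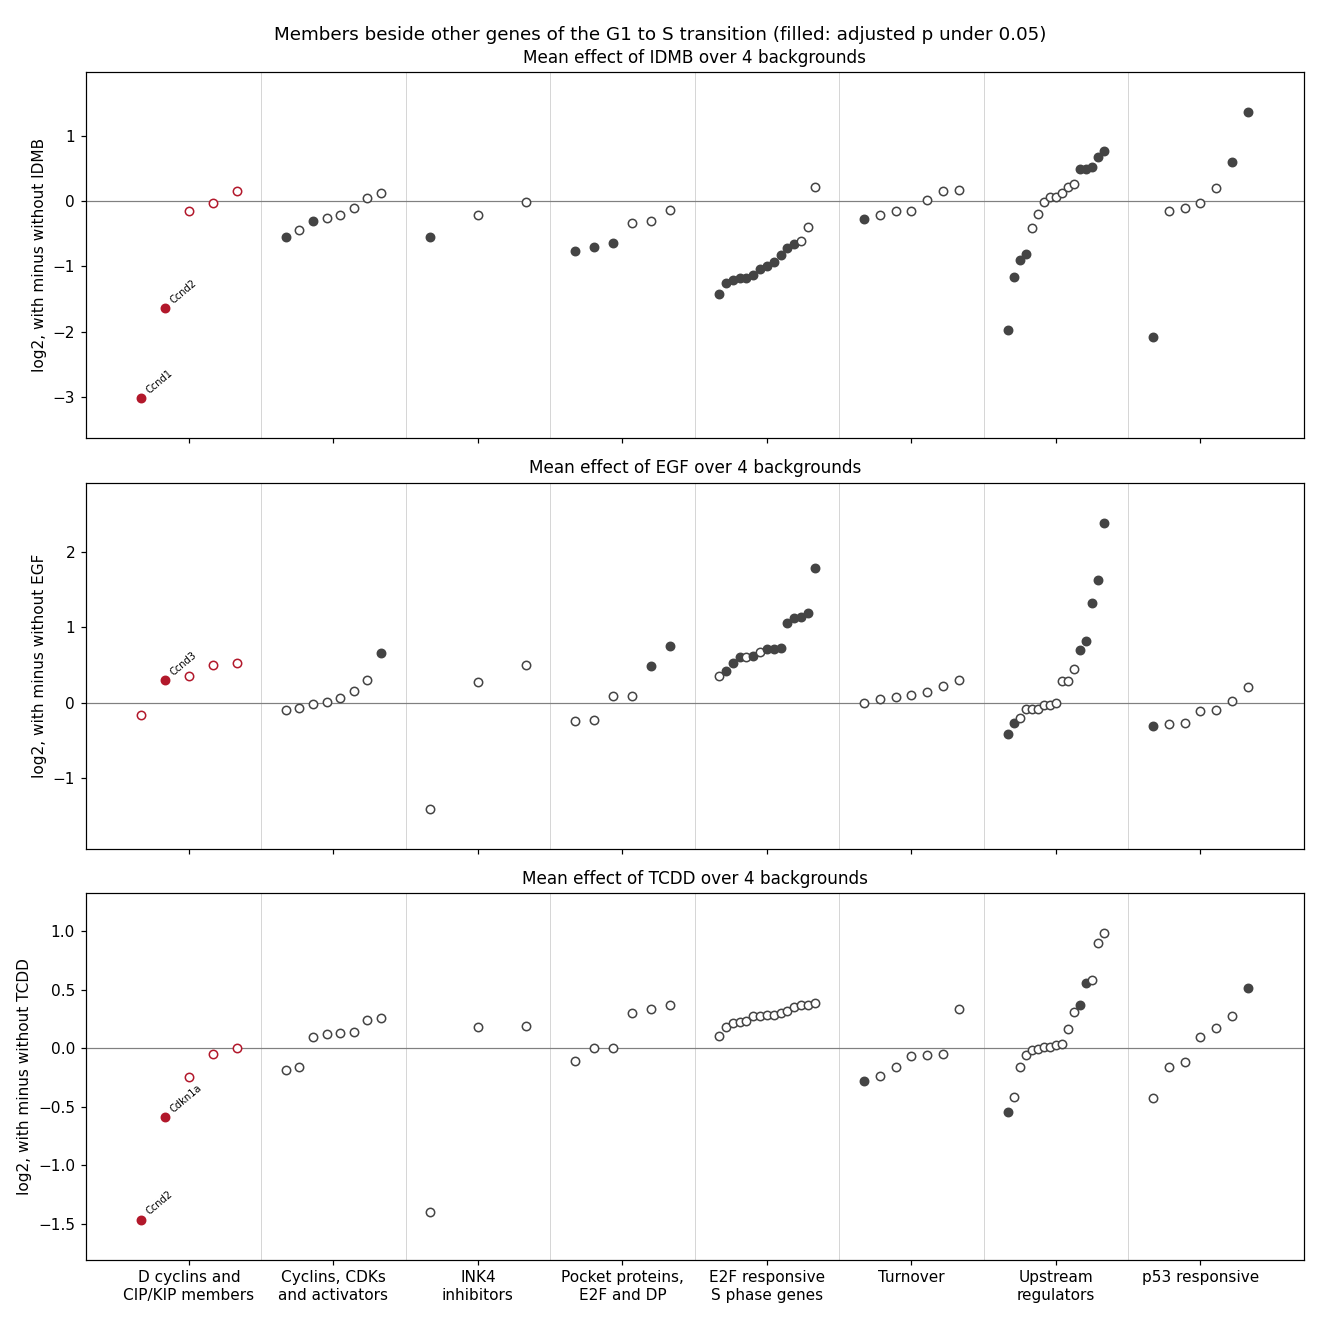
Mean effect of IDMB, EGF and TCDD (vertical axes, log2 difference with minus without), 1 point per gene, ordered by value within each list. Red marks the 5 tested genes of the D cyclin and CIP/KIP families. Black marks 7 lists of other genes, of the G1 to S transition, of its regulators and of p53 responses. Filled points have an adjusted p under 0.05. The largest fall with IDMB among all these genes is that of Ccnd1, most E2F responsive genes lie lower with IDMB and higher with EGF, and few listed genes were called with TCDD.

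Other genes around the D cyclins and the inhibitors were read from 7 lists. These held partners and targets, other inhibitors, turnover genes, transcription regulators and p53 responsive genes. As a background for all 7, 18.6% of all probe sets were called lower and 15.5% higher with IDMB. With EGF these shares were 6.04% and 7.06%, and with TCDD 2.83% and 2.71%. Among G1 and S phase cyclins, kinases and activators, 2 of 8 tested genes were lower and 0 higher with IDMB (median log2 -0.24, against -0.04 over all probe sets). These were Cdk2, the kinase that p21 and p27 inhibit (log2 -0.55, adjusted p = 0.00615 in limma), and Ccne1, a cyclin of Cdk2 (log2 -0.31, adjusted p = 0.0430). With the beta-actin ratio as a covariate 0 of the 8 were called (median -0.05; adjusted p = 0.531 for Cdk2 and 0.939 for Ccne1). Cdk4, the partner of the D cyclins, was at -0.21 and was not called (adjusted p = 0.0883). With EGF 1 of 8 was higher, Ccna2, a cyclin of S phase (log2 0.66, adjusted p = 0.0205), but 0 with either control ratio as a covariate, and with TCDD 0 were called.

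Of 6 tested pocket proteins, E2F and DP factors, 3 were lower with IDMB and 0 higher, beside 18.6% and 15.5% of all probe sets. They were Rbl1, the pocket protein p107 (log2 -0.77), E2f1 (-0.65) and Tfdp1, a partner of E2F factors (-0.70), with adjusted p of 0.00375, 0.0186 and 0.000200 in limma. With the beta-actin ratio as a covariate 0 of the 6 were called (median -0.61). With EGF, 2 of 6 were higher, Rbl1 (log2 0.75, adjusted p = 0.0152) and Tfdp1 (0.49, adjusted p = 0.0138), and 0 with either control ratio as a covariate. Among 3 INK4 inhibitors, which bind Cdk4 and Cdk6, only Cdkn2d was called in the 3 mean effects, lower with IDMB (log2 -0.55, adjusted p = 0.0320; 0.972 with the beta-actin ratio as a covariate). Among 7 genes of protein turnover only Skp1, a subunit of SCF ubiquitin ligases, was called, lower with IDMB (log2 -0.27, adjusted p = 0.0114) and with TCDD (log2 -0.28, adjusted p = 0.0427). The IDMB call was lost with the beta-actin ratio as a covariate (0.683) and the TCDD call with the beta-actin (0.109) or Gapdh ratio (0.0550).

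E2F responsive genes of S phase were lower with IDMB for 12 of 15 tested (0 higher, median log2 -0.998) and higher with EGF for 12 of 15 (0 lower, median 0.71). Over all probe sets 18.6% were lower with IDMB and 7.06% higher with EGF. The list also held Cdk1, Ccnb1 and Mki67, which are not specific to S phase. Cdk1 was among those lower with IDMB, and Cdk1 and Mki67 were among those higher with EGF. Cdc6, a loader of the replicative helicase, was at log2 -1.42 with IDMB and 0.60 with EGF (adjusted p = 5.91e-06 and 0.0253 in limma). Mcm5, a subunit of that helicase, was at -1.13 and 1.05 (adjusted p = 0.000349 and 0.00368). Rrm1, of ribonucleotide reductase, was at -1.04 and 1.13 (adjusted p = 0.000797 and 0.00269). With TCDD 0 of 15 were called (median 0.28).

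On single backgrounds the number of S phase genes lower with IDMB was 7 of 15 in IDMB + TCDD against TCDD cells, 7 in IDMB + EGF against EGF cells and 4 in IDMB + EGF + TCDD against EGF+TCDD cells, with 0 higher in each. Of all probe sets 6.28%, 5.27% and 3.06% were called lower there. The 3 comparisons that follow share the UT arrays. In IDMB against UT cells, where Ccnd1 was 6.51-fold lower on 94232_at, 0 of 15 were lower and 1 was higher (Pcna, the sliding clamp of DNA polymerase, log2 0.73, adjusted p = 0.0296 in limma). In that comparison 7.42% of all probe sets were called lower. In EGF against UT cells 14 of 15 were higher (median log2 1.498; 6.17% of all probe sets were called), while Ccnd1 was not called (log2 0.60, adjusted p = 0.390). In TCDD against UT cells 3 of 15 were higher (Mcm4, Mcm5 and Mcm7, log2 1.36, 1.35 and 1.55, adjusted p 0.0103, 0.0403 and 0.00589), while Cdkn1a and Ccnd2 were lower. Of all probe sets 3.88% were called higher there. Fits of the lists with a covariate were read for the mean effects only, so these calls on single backgrounds were not checked that way. Beside these counts, the beta-actin ratio ran from 1.52 to 3.80 with EGF and from 1.23 to 2.25 without. With the actin ratio as a covariate 1 of 15 stayed lower with IDMB (median -0.86), and with either ratio 0 of 15 were called with EGF (medians 0.81 and 0.89). As the ratios moved with IDMB and EGF, these fits cannot separate treatment from RNA quality.

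Among 17 tested transcription regulators that can act on these genes, 5 were higher and 4 lower with IDMB, beside 15.5% and 18.6% of all probe sets. Beside Foxo3, those higher were Stat3 (adjusted p = 8.24e-05 in limma), Stat5a (8.32e-05), Junb (0.00928) and Fosl1 (0.0222). Whether any of these regulators acted on the D cyclins or the inhibitors here was not tested. The higher ones included Foxo3, a forkhead factor that can raise Cdkn1b and repress D cyclins (log2 0.76, adjusted p = 1.84e-05 in limma), and the lower ones Klf4, which can raise Cdkn1a (-1.98, adjusted p = 1.70e-07), Jun, an activator of Ccnd1 (-0.82, adjusted p = 0.000586), Klf6, and Ahr, the receptor of TCDD (-1.16, adjusted p = 3.32e-05). With the beta-actin ratio as a covariate 0 were higher, Foxo3 among those lost, and 3 were lower (Klf4, Klf6 and Ahr). With EGF 5 were higher, led by the immediate early genes Egr1 (log2 2.38, adjusted p = 0.000569) and Fos (1.63, adjusted p = 0.00348), and 2 lower; with either ratio as a covariate 0 were called. With TCDD 2 were higher and 1 lower, the last being Jund (log2 -0.55, adjusted p = 0.000644); the 2 higher calls, Foxo3 and Junb, were lost with the beta-actin ratio (adjusted p = 0.0920 and 0.0594).

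Of 7 p53 responsive genes other than Cdkn1a, 1 was called with TCDD, Plk2, which was higher (log2 0.52, adjusted p = 0.00503 in limma) where Cdkn1a was lower. With IDMB 2 were higher, Sesn1 (log2 1.36, adjusted p = 1.97e-07) and Gadd45a (0.59, adjusted p = 0.0134), and Plk2 was lower (-2.08, adjusted p = 2.06e-10). Over all probe sets 15.5% were higher and 18.6% lower with IDMB. Gadd45a was not called with the beta-actin ratio as a covariate (adjusted p = 0.825), while Sesn1 and Plk2 were.

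The genes whose log2 values ran most like each member over the 18 arrays were found by Pearson correlation among all other tested genes with 1 symbol. These arrays share groups and scaling, so the values are a description. For Ccnd1 they were Ccl2 (r = 0.963), Ccdc12 (0.962) and Fam171a1 (0.959), and for Ccnd2 Rasa4 (0.876), Nacc2 (0.873) and Akr1b8 (0.870). Ccnd3 ran most like Homer3 (0.894), Fn1 (0.877) and Phf23 (0.877). Cdkn1a ran most like Smoc2 (0.867), Cops6 (0.839) and Rab34 (0.815), and Cdkn1b most like Daglb (0.824), Necap1 (0.777) and Tmem30a (0.750). Among the 10 pairs of members the highest were Ccnd1 and Ccnd2 at 0.683, Ccnd2 and Ccnd3 at 0.616, Ccnd3 and Cdkn1a at 0.507 and Ccnd2 and Cdkn1a at 0.492. After group means were removed these 4 pairs were at 0.611, 0.356, 0.717 and 0.694.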

How the data were processed

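Total RNA of 18 samples was measured on Affymetrix mouse arrays. The deposited values are signal intensities on a linear scale, 1 per probe set and array. A mean trimmed by 2% at each end came to between 2501.4 and 2501.7 on every array, so a common scaling came before deposit. The software was not given in the sources used here. Detection calls were not used. Gene symbols came from the array annotation (10855 probe sets with 1 symbol, 396 with several, 1193 with none, 66 controls left out of tests), and 0 symbols changed through Entrez identifiers.

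Values under 143.5 were set to it and log2 was taken. limma 3.58.1 in R 4.3.3 fitted 1 mean per group over all 18 arrays, with variances moderated along a trend on the mean (10 residual and 6.03 prior degrees of freedom). p-values were adjusted by Benjamini-Hochberg over 7134 probe sets within each of 21 comparisons, and the procedure was tested on simulated data. The probe set with the highest mean log2 value stands for a gene, and all probe sets of the 6 members are given. Of the pathway lists, genes called in a mean effect may be named; Cdk4 was named after its values were seen. The 3 genes most like each member were taken by Pearson correlation. Members and lists were chosen with earlier results of these data known. Alternatives were 2 other floors or offsets, 2 other scalings, no filter, no variance trend, a replicate block, 2 ratios of control probe sets as covariates and leaving out each array; the covariates on the pathway lists were added after seeing the data.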

Additional observations from a re-analysis of the deposited data

Results flagged for a closer look

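On Ccnd1 probe set 94231_at EGF went with opposite shifts on 2 backgrounds that both held TCDD. Both EGF+TCDD arrays lay below both TCDD arrays (log2 -0.55), while both IDMB + EGF + TCDD arrays lay above both IDMB + TCDD arrays (log2 1.05). On Cdkn1b probe set 100278_at both EGF+TCDD arrays lay above both EGF arrays (log2 0.68), while both IDMB + TCDD arrays lay below all 3 IDMB arrays (log2 -0.92). Separations of the same kind and direction were found in 27.2% and 26.2% of all probe sets for the EGF comparisons and in 19.2% and 18.8% for the TCDD comparisons. The difference between these pairs was not tested directly, none of the 4 comparisons was called in limma, and no interaction was called for either probe set in the fit to all arrays; EGF by TCDD was called for Cdkn1b 100278_at without IDMB + EGF replicate 2 (adjusted p = 0.0391 in limma).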

How the results depend on the processing

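The count of 3 probe sets lower with IDMB was 3 under all 9 other settings and in all 18 fits with 1 array left out (3 to 3). The count of 1 called with EGF was 0 with each array scaled to the same median, no filter on dim probe sets, no variance trend, the replicate block, and the beta-actin or the Gapdh ratio as a covariate, and 0 to 1 with 1 array left out. The count of 3 called with TCDD was 1 with no filter, 4 with the replicate block, and 2 to 3 with 1 array left out. The count of 0 interactions was 1 with a floor at the 5th percentile, 1 with 100 added before log2, 2 with the replicate block (EGF by TCDD for Ccnd2, adjusted p = 0.00541, and for Cdkn1a 98067_at, 0.0389), and 0 to 1 with 1 array left out. The causes were not tested. No difference changed sign past the threshold. Of 22 called pairs of probe set and comparison among 168, 11 kept the call whichever array was left out and 11 under all 9 other settings, and 11 pairs not called passed under some setting. Over all probe sets the 2432 called with IDMB were 448 with the actin ratio, the 935 called with EGF were 0 with either ratio and 463 at the fewest with 1 array left out, and the 395 called with TCDD were 260 at the fewest. The Ccnd2 difference between IDMB + TCDD and IDMB cells was -3.53 with the floor at the 5th percentile. The EGF by TCDD calls numbered 319, and 174 with no filter, 597 with the replicate block, 73 and 1 with the actin and Gapdh ratios, and 111 to 407 with 1 array left out; IDMB by EGF calls numbered 9 (0 to 21) and IDMB by TCDD 8 (8 to 15). The Ccnd2 difference between IDMB + TCDD and TCDD cells was called with the replicate block (0.0174). Pairing by replicate number was partial, and the main fit left it out. After group means were removed, 14 of 57 pairs of the same number correlated over 0.1 (median 0.05, range -0.10 to 0.44, against a median of -0.02 for other pairs). Of 18 arrays, 12 correlated best with their own number. With the replicate block the calls over all probe sets went from 2432 to 2541 for IDMB, 935 to 1059 for EGF and 395 to 575 for TCDD. Signal limits Cdkn1c, with 10 of 18 arrays under the floor.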
